A study of Mus musculus with 12 samples.

Results

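The 10 genes described here were Nr3c1, Fkbp5, Tsc22d3, Sgk1, Zbtb16, Mt1, Mt2, Dusp1, Serpina6 and Errfi1, genes known to respond to glucocorticoids or to take part in the response, together with both main liver metallothioneins. They were taken by gene symbol from the 24537 genes of the liver RNA-Seq table, by a rule on symbols that uses no measured value, although earlier results of these data were known when they were chosen. All 10 were among the 10593 genes tested, which had at least 1 FPKM (fragments scaled by transcript length and by the number mapped in the library) in at least 3 libraries. Liver RNA came from 12 male C57Bl/6J mice, which were 6 weeks old at the start. Control (Con) mice ate the NIH41 diet freely, and calorie-restricted (CR) mice were given 30% less of a fortified form, provided once a day at noon. Livers were taken from 3 Con and 3 CR mice on day 25 and from 3 of each on day 30, and each mouse gave 1 library. All mice lived singly, carried no transgene, and drank heavy water for the last days to label their proteins. The comparison asked which genes differed with CR at a time when hepatic protein turnover was being followed. The hour at which livers were taken is not given in the sources used here, so that time of day and time since the last meal cannot be told apart from diet.

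Glucocorticoids are steroid hormones of the adrenal cortex that rise in fasting and stress. In the liver they bind the glucocorticoid receptor, which is held ready by Hsp90 and its co-chaperones, moves to the nucleus and binds short palindromic DNA elements near its target genes. Several targets dampen the response in turn: they hold the receptor in a low-affinity state, remove phosphate from stress kinases or restrain growth factor receptors. Metallothioneins are small cysteine-rich proteins that bind zinc and copper. Their genes are switched on by metals through the factor MTF1, which binds metal response elements, and also by glucocorticoids and by inflammatory signals.

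Libraries held 15748714 to 23345532 reads as recovered from the steps of the FPKM values. All 8 hepatocyte markers were tested, and their summed level was 47500 to 54440 FPKM in Con and 55350 to 58580 FPKM in CR mice at day 25, and 39920 to 49270 FPKM and 57770 to 66550 FPKM at day 30. Such a sum is weighted to the most abundant markers. Taken singly, 4 were higher and 2 lower in CR mice over both days (limma, Benjamini-Hochberg adjusted p under 0.1), with a median log2 fold change of 0.20. Of all genes tested, 14.5% were higher and 26.1% lower. The 6 stellate cell markers summed to 62.4 to 69.2 FPKM in Con and 74.2 to 82.7 FPKM in CR mice at day 25, and to 54.0 to 70.5 FPKM and 78.3 to 94.3 FPKM at day 30. The 7 Kupffer cell markers summed to 39.3 to 64.8 FPKM in Con and 24.6 to 32.2 FPKM in CR mice at day 25, and to 33.9 to 50.4 FPKM and 33.9 to 45.2 FPKM at day 30. The 7 markers of sinusoidal endothelium summed to 43.05 to 63.2 FPKM in Con and 55.05 to 64.9 FPKM in CR mice at day 25, and to 41.5 to 47.9 FPKM and 54.6 to 60.5 FPKM at day 30. Con and CR mice did not overlap in the hepatocyte and stellate sums at both days, in the Kupffer sum at day 25 and in the endothelial sum at day 30, and the part of these cell types in the results below was not tested. In whole liver, fewer cells of a type and less RNA per cell cannot be told apart. Neutrophil, lymphocyte and adipocyte markers stayed at or below a summed 5.10 FPKM in every library, and 1 neutrophil marker was listed at 0 throughout.

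In Con mice of both days the levels per length ran from Errfi1 at 433.2 ± 67.4 FPKM (SD, n = 6) to Zbtb16 at 5.47 ± 2.83 FPKM. Mt1 (332.7 ± 142.4 FPKM), Mt2 (164.5 ± 102.6 FPKM) and Serpina6 (95.3 ± 15.7 FPKM) followed Errfi1, and Tsc22d3 (42.1 ± 14.5 FPKM) and Fkbp5 (21.1 ± 14.1 FPKM) lay in the middle. Nr3c1 (14.1 ± 1.95 FPKM), Dusp1 (12.5 ± 5.60 FPKM) and Sgk1 (6.52 ± 1.91 FPKM) were low. Each of these genes overlapped its neighbor in the order in its range over mice, except Serpina6 and Tsc22d3, whose ranges were apart. In CR mice Mt1 stood first at 673.9 ± 278.9 FPKM, ahead of Errfi1 at 485.4 ± 41.3 FPKM, and Zbtb16 had moved from the last place to above Nr3c1, with 19.3 ± 5.20 FPKM against 13.3 ± 2.10 FPKM. The ranges of Errfi1 and Mt1 overlapped in each diet. Zbtb16 lay below Nr3c1 in Con mice with no overlap, at 1.60 to 10.1 FPKM against 11.3 to 16.8 FPKM, and their ranges overlapped in CR mice.

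CR raised 6 of the 10 genes at day 25, 5 at day 30 and 8 over both days, and every call was for a higher level in CR mice (limma, Benjamini-Hochberg adjusted p under 0.1). Among all genes tested, 5.6% were called higher at day 25, 8.33% at day 30 and 14.5% over both days. With a fold threshold of 2 added, 5 of the 10 passed at day 25, 4 at day 30 and 5 over both days, where 1.48%, 2.21% and 1.66% of all genes passed in either direction. The median log2 fold change of the 10 genes was 1.24 at day 25 and 0.96 at day 30, against -0.04 and -0.07 over all genes tested. Fkbp5, Tsc22d3, Zbtb16, Mt1 and Serpina6 were higher at both days, though Mt1 passed only narrowly (limma, adjusted p = 0.0911 and 0.0982). Dusp1 was higher at day 25, and Sgk1 and Mt2 were higher over both days together. Nr3c1 and Errfi1 passed in none of the 3 comparisons.

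**Figure D1:**
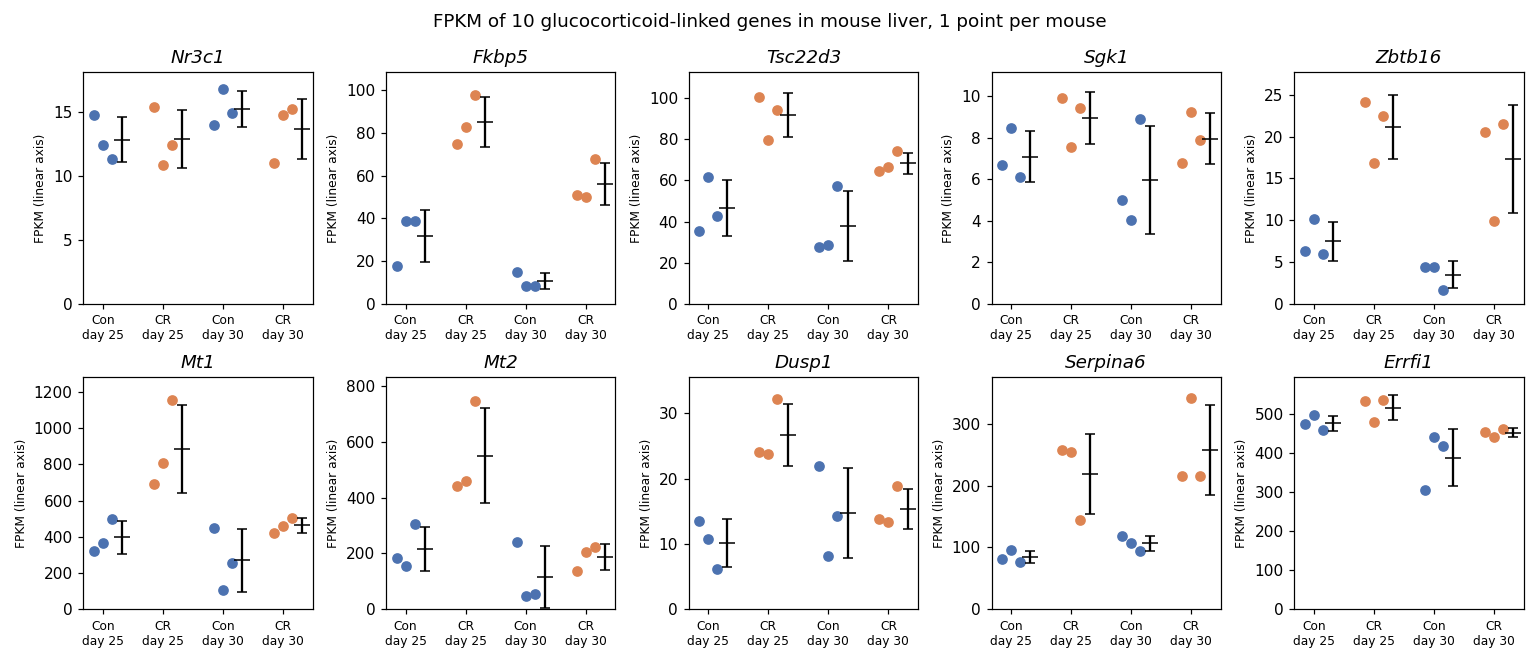
FPKM of the 10 genes (vertical axes, linear and starting at 0) in each of the 12 mice, with 1 point per mouse, blue for Con and orange for CR, and the mean with SD (n = 3) beside each group. All CR mice lay above all Con mice of the same day for 7 genes at day 25 and for 5 at day 30.

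All 3 CR mice lay above all 3 Con mice for 7 of the 10 genes at day 25 and for 5 at day 30, where 10.2% and 12.1% of all genes did so. For Fkbp5, Tsc22d3, Zbtb16 and Serpina6 this held at both days. For Fkbp5, Tsc22d3 and Serpina6 all 6 CR mice lay above all 6 Con mice, which 3.82% of all genes did.

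Nr3c1 encodes the glucocorticoid receptor itself. It lies on mm10 chromosome 18, 39410545 to 39487245, minus strand, and the table reports transcript NM_008173. At day 25 it was at 14.8, 12.5 and 11.3 FPKM in Con and at 15.4, 10.9 and 12.4 FPKM in CR mice. At day 30 it was at 14.02, 16.8 and 14.97 FPKM in Con and at 11.02, 14.8 and 15.3 FPKM in CR mice. The groups overlapped at both days. The log2 fold change was -0.0003 at day 25, with a 95% interval of -0.32 to 0.32, and -0.16 at day 30, with an interval of -0.48 to 0.17 (adjusted p = 0.999 and 0.493). Over both days it was -0.08, with an interval of -0.30 to 0.14 (adjusted p = 0.589). A change of the receptor's transcript by 2-fold in either direction lies outside these intervals.

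Fkbp5 encodes FKBP51, a co-chaperone of Hsp90 that is induced by glucocorticoids and holds the receptor in a state of low hormone affinity. Its transcript, NM_010220, lies on chromosome 17, 28398753 to 28486149, minus strand. At day 25 it was at 17.8, 38.6 and 38.9 FPKM in Con and at 74.8, 82.9 and 98.0 FPKM in CR mice. At day 30 the Con mice had 14.8, 8.37 and 8.27 FPKM and the CR mice 50.9, 50.05 and 67.8 FPKM. The lowest CR mouse of either day was above the highest Con mouse of either day. The mean was 2.68-fold higher in CR at day 25 and 5.37-fold higher at day 30. On the log2(FPKM + 1) scale the difference was 1.47 ± 0.28 (SE) at day 25 and 2.35 ± 0.28 at day 30 (adjusted p = 0.00809 and 3.0e-04). Over both days it was 1.91 ± 0.23 (adjusted p = 7.1e-05), the largest difference of the 10 genes.

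Serpina6 encodes corticosteroid-binding globulin, which the liver secretes and which carries most of the hormone in blood. Its transcript, NM_007618, lies on chromosome 12, 103646631 to 103657218, minus strand. The Con mice had 80.7, 95.9 and 76.3 FPKM at day 25 and 117.9, 107.0 and 93.8 FPKM at day 30. The CR mice had 257.1, 254.6 and 144.2 FPKM at day 25 and 215.6, 340.9 and 214.8 FPKM at day 30. CR mouse 3 of day 25 was the lowest of the restricted mice and still lay above every Con mouse. The means were 2.59-fold and 2.42-fold higher in CR. The log2 differences of 1.32 ± 0.23 and 1.24 ± 0.23 were close to each other (adjusted p = 0.00481 and 0.00394), and the difference between days, -0.08, had a 95% interval of -0.79 to 0.62.

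Tsc22d3 encodes GILZ, a leucine zipper protein that mediates part of the anti-inflammatory action of glucocorticoids. The table reports it through NR_122039, a RefSeq record of a transcript listed as non-coding, on chromosome X, 140539529 to 140542668, minus strand. At day 25 Con mice had 35.2, 61.5 and 42.6 FPKM and CR mice 100.7, 79.8 and 94.3 FPKM. At day 30 Con mice had 27.5, 28.6 and 57.3 FPKM and CR mice 64.6, 66.4 and 74.1 FPKM. No CR mouse overlapped a Con mouse, although Con mouse 2 of day 25 and Con mouse 3 of day 30 came near to the lowest CR mice. The means were 1.97-fold and 1.81-fold higher, with log2 differences of 1.00 ± 0.25 and 0.92 ± 0.25 (adjusted p = 0.0296 and 0.0281). Without Con mouse 1 of day 25 the first was 0.82 with an adjusted p of 0.1075, and without Con mouse 1 of day 30 the second was 0.74 with an adjusted p of 0.103. Over both days the difference was 0.96 ± 0.17 (adjusted p = 0.00129).

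Zbtb16 encodes PLZF, a zinc finger repressor that glucocorticoids induce in many tissues. Its transcript, NM_001033324, lies on chromosome 9, 48654297 to 48835945, minus strand. At day 25 it was at 6.29, 10.1 and 6.02 FPKM in Con and at 24.2, 16.9 and 22.5 FPKM in CR mice. At day 30 it was at 4.37, 4.43 and 1.60 FPKM in Con and at 20.6, 9.90 and 21.5 FPKM in CR mice. Within each day the diets were apart, and across days CR mouse 2 of day 30 fell just under the highest Con mouse of day 25. The means were 2.83-fold and 5.004-fold higher in CR, and the log2 differences were 1.40 ± 0.32 and 2.04 ± 0.32 (adjusted p = 0.0184 and 0.00165). Con mouse 3 of day 30, the lowest value of the gene, still held 184 reads.

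**Figure D2:**
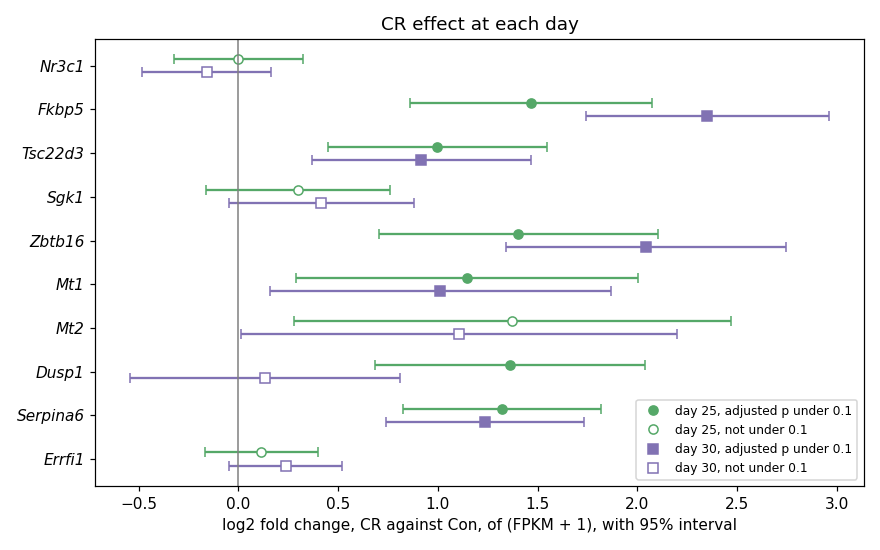
Difference between CR and Con mice for each gene (horizontal axis, log2 fold change of FPKM + 1, with its 95% interval), in green circles for day 25 and purple squares for day 30. Filled marks have an adjusted p under 0.1, and the intervals of Nr3c1, Sgk1 and Errfi1 include 0 at both days.

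Sgk1 encodes a serine/threonine kinase of the insulin and mineralocorticoid pathways that glucocorticoids induce early. Its transcript in the table, NM_001161848, lies on chromosome 10, 21986104 to 21999902, plus strand. Its levels were 6.70, 8.44 and 6.12 FPKM in Con and 9.89, 7.53 and 9.40 FPKM in CR mice at day 25. They were 4.97, 4.01 and 8.89 FPKM in Con and 6.76, 9.23 and 7.87 FPKM in CR mice at day 30. The groups overlapped at both days, through CR mouse 2 of day 25 and Con mouse 3 of day 30. The log2 differences were 0.30 with a 95% interval of -0.16 to 0.76 and 0.42 with an interval of -0.05 to 0.88 (adjusted p = 0.418 and 0.200). Without Con mouse 3 of day 30 the second was 0.70 (adjusted p = 0.0186). Over both days the difference was 0.36 ± 0.15 (adjusted p = 0.0771). That call ended when Con mouse 1 or 3 or CR mouse 1 or 3 of day 25, or Con mouse 1 or 2 or CR mouse 2 or 3 of day 30, was left out, with differences of 0.26 to 0.35 and adjusted p of up to 0.164.

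Dusp1 encodes MKP-1, a nuclear phosphatase that switches off MAP kinases and is a classic early target of the receptor. Its transcript, NM_013642, lies on chromosome 17, 26505591 to 26508472, minus strand. At day 25 Con mice had 13.5, 10.8 and 6.13 FPKM and CR mice 24.2, 23.7 and 32.3 FPKM. At day 30 Con mice had 21.97, 8.06 and 14.2 FPKM and CR mice 13.8, 13.3 and 18.8 FPKM. The diets were apart at day 25 and overlapped fully at day 30, where Con mouse 1 was the highest and Con mouse 2 the lowest. The mean was 2.63-fold higher in CR at day 25 (log2 difference 1.36 ± 0.31, adjusted p = 0.0180). At day 30 the log2 difference was 0.14, with a 95% interval of -0.54 to 0.81 (adjusted p = 0.800), and it was -0.21 without Con mouse 2 and -0.01 without CR mouse 3 of that day. Over both days it was 0.75 ± 0.27 (adjusted p = 0.0510), and 0.55, 0.62 and 0.66 without Con mouse 3 of day 25, CR mouse 3 of day 25 and Con mouse 2 of day 30 (adjusted p = 0.1002, 0.112 and 0.104).

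Errfi1 encodes MIG6, an inhibitor of the epidermal growth factor receptor that is abundant in hepatocytes. Its transcript, NM_133753, lies on chromosome 4, 150855091 to 150868880, plus strand. Con mice had 474.8, 497.3 and 459.5 FPKM and CR mice 534.6, 480.3 and 537.8 FPKM at day 25. Con mice had 307.0, 440.7 and 419.9 FPKM and CR mice 455.0, 441.7 and 463.1 FPKM at day 30. The diets overlapped at day 25 and were just apart at day 30, by 441.7 FPKM in CR mouse 2 against 440.7 FPKM in Con mouse 2. The log2 differences were 0.12 ± 0.13 and 0.24 ± 0.13 (adjusted p = 0.629 and 0.231), with 95% intervals of -0.17 to 0.40 and -0.05 to 0.52. Errfi1 had the smallest within-group spread of the 10 genes, with an SD of 0.15 on the log2 scale, which was wider than that of 50.4% of all genes tested. With median-ratio scaling the difference over both days was 0.25 and passed (adjusted p = 0.0557), against 0.18 and 0.1495 without scaling between libraries.

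Sequences around the transcription starts were examined for the letters of known elements, since the metallothionein genes are classic targets of both metals and glucocorticoids. RefSeq windows on GRCm38.p6 (the assembly of mm10) from 250 bases before to 50 bases after a start were given for 7 of the 10 genes and were not used for Nr3c1, Zbtb16 and Serpina6. The letters searched, on both strands, were TGCACNC and TGCGCNC for the core of the metal response element, ACANNNTGT for the core of the glucocorticoid response element, AGAACA and TGTTCT with any 3 bases between them for the full palindrome that holds that core, and TGACGTCA for the cyclic AMP response element. Of 32851 windows of 27025 genes, 25.7% held at least 1 match to either metal core, 1.97% held 3 or more, 6.85% held the glucocorticoid core, 0.00913% (3 windows) held the full palindrome and 1.79% held the cyclic AMP element. Shown here, 5′ to 3′ along the gene, are the windows of both metallothionein genes and the windows of Dusp1 and Sgk1 that held the cyclic AMP element and the full palindrome, from 250 bases before the start to base 30, with matches in capitals. The first base of the transcript is 1, and positions give the first base of a match.
Mt1, chr8:94178839-94179118, plus strand: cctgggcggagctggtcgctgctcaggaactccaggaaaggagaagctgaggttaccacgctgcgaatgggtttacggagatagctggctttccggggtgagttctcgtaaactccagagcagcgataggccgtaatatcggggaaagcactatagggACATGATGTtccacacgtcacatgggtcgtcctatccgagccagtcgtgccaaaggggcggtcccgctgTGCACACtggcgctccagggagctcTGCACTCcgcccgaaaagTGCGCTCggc
Mt2, chr8:94172368-94172647, plus strand: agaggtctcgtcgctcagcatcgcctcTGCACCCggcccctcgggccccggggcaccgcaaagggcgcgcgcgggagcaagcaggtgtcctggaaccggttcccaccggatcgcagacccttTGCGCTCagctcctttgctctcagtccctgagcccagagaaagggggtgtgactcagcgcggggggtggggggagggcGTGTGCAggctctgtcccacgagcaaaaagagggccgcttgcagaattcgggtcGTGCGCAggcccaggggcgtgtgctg
Dusp1, chr17:26508443-26508722, minus strand: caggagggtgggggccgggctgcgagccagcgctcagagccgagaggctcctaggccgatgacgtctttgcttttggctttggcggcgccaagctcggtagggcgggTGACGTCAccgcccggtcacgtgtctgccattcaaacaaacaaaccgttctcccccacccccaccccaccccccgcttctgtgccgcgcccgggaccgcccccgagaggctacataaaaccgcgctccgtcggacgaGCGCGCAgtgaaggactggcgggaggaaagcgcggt
Sgk1, chr10:21993640-21993919, plus strand: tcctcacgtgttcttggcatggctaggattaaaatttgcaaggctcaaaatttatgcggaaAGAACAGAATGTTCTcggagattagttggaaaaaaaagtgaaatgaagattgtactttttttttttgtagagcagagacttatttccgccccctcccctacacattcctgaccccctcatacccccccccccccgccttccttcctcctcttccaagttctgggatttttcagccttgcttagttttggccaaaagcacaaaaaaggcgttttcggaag

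The Mt1 window held 3 matches to the metal cores, at -23, 3 and 21, and 1 to the glucocorticoid core at -92. The Mt2 window held 4 matches to the metal cores, at -223, -128, -50 and 5, those at -50 and 5 being on the opposite strand. In Dusp1 the cyclic AMP element began at -143 and a metal core on the opposite strand at -6, and in Errfi1 the cyclic AMP element began at -51 of a start 21 bases from that of the table. The full palindrome began at -189 of the Sgk1 start shown, which lies 7786 bases downstream of the start of the transcript in the table, within that transcript's span. Sgk1 had several of the 15 windows searched, and that at the start of its transcript in the table held no match. Another Sgk1 window held the glucocorticoid core at -127, and a further one held a metal core at 12 on the opposite strand. Windows of Fkbp5 and Tsc22d3 held none of these letters. A match is a string of letters and shows no binding, and an element outside these windows would not have been seen.

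Mt1 and Mt2 are neighbors on chromosome 8 and are read in the same direction, Mt2 (NM_008630) from 94172618 to 94173567 and Mt1 (NM_013602) from 94179089 to 94180327. At day 25 Mt1 was at 322.5, 367.9 and 499.8 FPKM in Con and at 692.2, 806.0 and 1157 FPKM in CR mice. At day 30 Con mice had 448.9, 104.2 and 252.9 FPKM and CR mice 422.2, 462.1 and 503.4 FPKM. The diets were apart at day 25, and at day 30 Con mouse 1 lay among the CR mice. The means were 2.23-fold and 1.72-fold higher in CR, with log2 differences of 1.15 ± 0.39 and 1.01 ± 0.39 (adjusted p = 0.0911 and 0.0982). Both calls were near the threshold. That at day 25 ended in 14 of 23 alternatives, among them leaving out any 1 of the day 25 mice, any 1 of the CR mice of day 30 or Con mouse 3 of day 30 (adjusted p of up to 0.257). The call at day 30 ended in 17 of 23, among them leaving out any 1 mouse other than Con mouse 1 of day 30, and without Con mouse 2 of that day the difference was 0.45 (adjusted p = 0.310). Over both days the difference was 1.08 ± 0.27 (adjusted p = 0.00940) and the call held in all 21 alternatives run.

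Mt2 followed Mt1 with a wider spread. It was at 184.4, 155.0 and 305.4 FPKM in Con and at 443.9, 461.0 and 749.0 FPKM in CR mice at day 25. At day 30 Con mice had 242.3, 45.4 and 54.4 FPKM and CR mice 135.6, 203.4 and 222.3 FPKM. The diets were again apart at day 25, and at day 30 Con mouse 1 was the highest of the 6. The log2 differences of 1.37 ± 0.50 and 1.11 ± 0.50 did not pass at either day (adjusted p = 0.1115 and 0.154), with 95% intervals of 0.28 to 2.47 and 0.01 to 2.20. Leaving out Con mouse 1 of day 30 gave 1.86 at that day (adjusted p = 0.00451) and an adjusted p of 0.0129 at day 25, where leaving out Con mouse 2 of day 30 gave 0.0825. Without Con mouse 2 the difference at day 30 was 0.66. The day 25 difference also passed with the day 25 mice fitted alone (adjusted p = 0.0268), with median-ratio scaling (0.0981) and in voom on the recovered reads (0.0939). Over both days the difference was 1.24 ± 0.35 and passed (adjusted p = 0.0164) in all 21 alternatives as well.

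With all groups pooled, the metallothioneins had the widest within-group spread of the genes described here. The pooled SD of log2(FPKM + 1) was 0.76 for Mt2 and 0.59 for Mt1, wider than that of 99.3% and 98.3% of all genes tested. That order did not hold in each group. For their level, both were most spread in Con mice of day 30, at 114.1 ± 111.2 FPKM (SD, n = 3) for Mt2 and 268.7 ± 172.8 FPKM for Mt1. In CR mice of day 30 Mt1 was at 462.5 ± 40.6 FPKM. That spread was smaller for its level than that of Zbtb16, at 17.3 ± 6.46 FPKM. The level of Mt2 was 0.42 to 0.61 of that of Mt1 in Con and 0.57 to 0.65 in CR mice at day 25. It was 0.22 to 0.54 in Con and 0.32 to 0.44 in CR mice at day 30. The fewest reads in a library were 534 for Mt2 and 1194 for Mt1. No run of 50 bases in either transcript was shared with another gene's transcripts, while 432 bases of the span of Mt2 overlapped exons of Gm45774 on the opposite strand, and since the use of strand in counting is not given in the sources used here, reads of both cannot be told apart.

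The difference between days was examined within each diet and as a difference of the CR effect, in the same mice as the comparisons above. None of the 10 genes passed in either (limma, adjusted p = 0.9995 for each of the 10 in the difference of the CR effect, where 0.00944% of all genes passed). At an unadjusted p under 0.05, Fkbp5 and Dusp1 were among 366 genes (3.46%) in the difference of the CR effect, and in voom none of the 10 passed. For Fkbp5 the CR effect was 0.88 larger at day 30 on the log2 scale (95% interval 0.025 to 1.74), and for Dusp1 it was 1.23 smaller (log2 difference -1.23, interval -2.18 to -0.27). For Mt1 the interval, -1.34 to 1.08, left room for a 2-fold difference in either direction.

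Within Con mice none of the 10 genes passed between day 25 and day 30, where 0% of all genes did. Fkbp5, Zbtb16, Mt2 and Errfi1 were among 765 genes (7.22%) at an unadjusted p under 0.05, and in voom none of the 10 passed. Fkbp5 was at a mean of 31.8 ± 12.1 FPKM (n = 3) at day 25 and 10.5 ± 3.73 FPKM at day 30, a log2 difference of -1.48 (95% interval -2.09 to -0.87, adjusted p = 0.235). Without Con mouse 1 of day 25 it was -1.84 (adjusted p = 0.0315), and without Con mouse 1 of day 30 -1.73 (0.0858). Without the latter, Mt2 also passed within Con mice, at -2.03 against -1.27 with all mice (adjusted p = 0.0709 and 0.622).

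Within CR mice none of the 10 passed between the days either, where 0.321% of all genes did. Mt1, Mt2 and Dusp1 were among 917 genes (8.66%) at an unadjusted p under 0.05, and in voom none of the 10 passed. Mt2 was at 551.3 ± 171.4 FPKM (n = 3) at day 25 and 187.1 ± 45.6 FPKM at day 30, with no overlap and a log2 difference of -1.54 (95% interval -2.64 to -0.45, adjusted p = 0.365). Without Con mouse 1 of day 30, a mouse outside this difference that enters the shared estimate of spread, the adjusted p was 0.0822. Mt1 was at 885.2 ± 242.5 FPKM and 462.5 ± 40.6 FPKM, a log2 difference of -0.90 (adjusted p = 0.535), and Dusp1 at 26.7 ± 4.80 FPKM and 15.3 ± 3.06 FPKM, a difference of -0.77 (adjusted p = 0.489). Serpina6 and Nr3c1 had small positive differences of 0.25 and 0.08, and the other 8 genes had negative ones.

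Some of the 10 genes varied together from mouse to mouse. Over the 12 libraries, which share a sequencing lane and a group structure, deviations from the group means of log2(FPKM + 1) correlated at r = 0.855 for Mt1 and Mt2 and at r = 0.857 for Tsc22d3 and Sgk1. Errfi1 correlated at r = -0.821 with Mt2 and at -0.723 with Mt1. Among Con mice of day 30, mouse 1 had the highest Mt2 at 242.3 FPKM and the lowest Errfi1 at 307.0 FPKM. Mice 2 and 3 of that group had 45.4 and 54.4 FPKM of Mt2 and 440.7 and 419.9 FPKM of Errfi1. Among Con mice of day 25, mouse 3 had the highest Mt1 and Mt2, at 499.8 and 305.4 FPKM, and the lowest Errfi1, at 459.5 FPKM. In each CR group, by contrast, mouse 3 was the highest for Mt1, Mt2 and Errfi1 alike. How far the negative values rest on the Con mice of either day was not tested. Fkbp5 was closer to the metallothioneins, at 0.634 with Mt1 and 0.636 with Mt2, than to Tsc22d3, at 0.110. Over the libraries as they stand, group differences included, Fkbp5 correlated at 0.919 with Zbtb16 and at 0.813 with Tsc22d3, and the within-group values of these pairs, 0.397 and 0.110, were lower. These values describe 12 mice and were not tested.

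**Figure D3:**
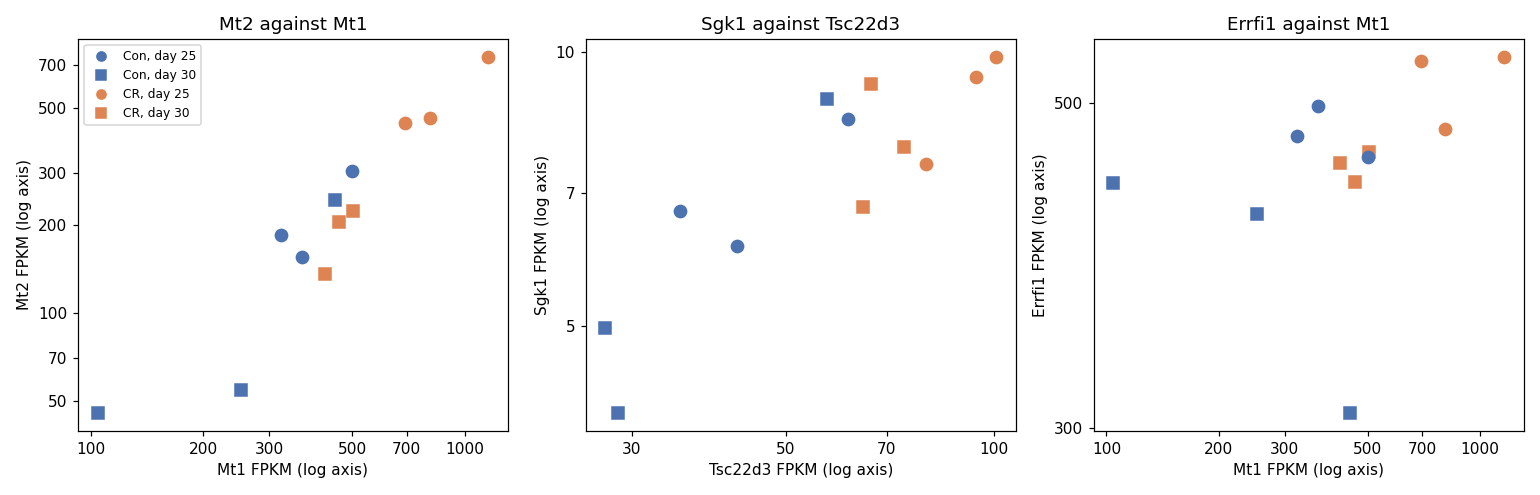
FPKM of Mt2 against Mt1, Sgk1 against Tsc22d3 and Errfi1 against Mt1 (log axes) in the 12 mice, with circles for day 25, squares for day 30, blue for Con and orange for CR. Con mouse 1 of day 30, at 448.9 FPKM of Mt1, has the lowest Errfi1 at 307.0 FPKM.

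The genes whose pattern over the 12 libraries was most like each of the 10 were found by the Pearson correlation of log2(FPKM + 1). Fkbp5 ran with Wbp1l (r = 0.979) and St3gal5 (0.975), and Serpina6 with Slc9a3r1 (0.975) and Homer2 (0.955). Tsc22d3 ran with Zfp12 (0.960) and Patz1 (0.959), and Zbtb16 with Rusc2 (0.951) and Tbc1d8 (0.934). For Mt1 the closest genes were Serpina3m (0.950) and Ces1b (0.947), and for Mt2 they were Baiap2 (0.951) and Mt1 itself (0.942). Sgk1 was closest to Tsc22d3 (0.870) and Patz1 (0.857), and Dusp1 had the lowest values, with Coq10a (0.864) and Socs5 (0.840). For Nr3c1, whose group means hardly differed, Slc35a3 and Dennd6a correlated at 0.961 and 0.960 over libraries and at 0.959 and 0.966 in the deviations from group means. Errfi1 was most like Epc1 (0.869) and Cep85l (0.863). The values over libraries include group differences and were picked as the highest over all genes tested. In the deviations from group means, with the 2 genes in the order given, Fkbp5 had 0.929 and 0.898 and Serpina6 0.889 and 0.671. Tsc22d3 had 0.834 and 0.904, Zbtb16 0.694 and 0.674, and Mt1 0.922 and 0.875. Mt2 had 0.895 and 0.855, Sgk1 0.857 and 0.756, Dusp1 0.65 and 0.704, and Errfi1 0.903 and 0.635.

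Other genes known as glucocorticoid targets of the liver were counted as a list of 21, all tested. At day 25, 12 passed and all were higher, at day 30, 14 were higher and 1 lower, and over both days 17 were higher and 1 lower, where 14.5% of all genes were higher and 26.1% lower. Their median log2 fold change over both days was 0.66, against -0.05 over all genes tested and 1.02 for the 10 genes above. Lpin1, a phosphatidate phosphatase of lipid synthesis and gene control in fasting, differed by 2.74 (adjusted p = 2.3e-05). Ddit4, an inhibitor of mTORC1, differed by 2.26, Mfsd2a, a lysophosphatidylcholine transporter, by 1.95, and Tat, the tyrosine aminotransferase that is a textbook target of the receptor, by 1.52. Klf9, named after its values were seen as the only gene of the list called lower, had a log2 difference of -0.32 (adjusted p = 0.0133). Many of these genes also respond to fasting hormones other than glucocorticoids, and the parts of each were not tested.

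Genes that supply the hormone or hold and assist the receptor did not move one way. Of 19 tested, 4 were higher and 5 lower over both days, where 14.5% and 26.1% of all genes were, with a median log2 fold change of -0.10. Nr3c2, the mineralocorticoid receptor, which binds the same hormone, fell by 0.92 on the log2 scale (adjusted p = 5.6e-05). Srd5a1, a reductase that inactivates the hormone, fell by 0.68, while the coactivator Ppargc1a and the Hsp40 chaperone Dnajb1 rose, with differences of 0.92 and 0.48. Hsd11b1, which regenerates active hormone inside the liver cell and was named after its values were seen, rose as well, with a difference of 0.40 (adjusted p = 0.00129).

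Genes of zinc and copper handling other than Mt1 and Mt2 moved in both directions. Of 17 tested, 2 were higher and 7 lower over both days, where 14.5% and 26.1% of all genes were, with a median log2 fold change of -0.13. Slc30a10, an exporter of manganese in liver, fell by 1.05 on the log2 scale (adjusted p = 5.6e-05), the copper pump gene Atp7b fell by 0.56 and the importer gene Slc39a8 fell by 0.36. Slc39a14, the importer induced in the acute phase response, rose, with a difference of 0.36 (adjusted p = 0.00928). Mtf1, the metal sensor of the metallothionein genes, was named after its values were seen and had a difference of 0.04 (95% interval -0.08 to 0.16).

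**Figure D4:**
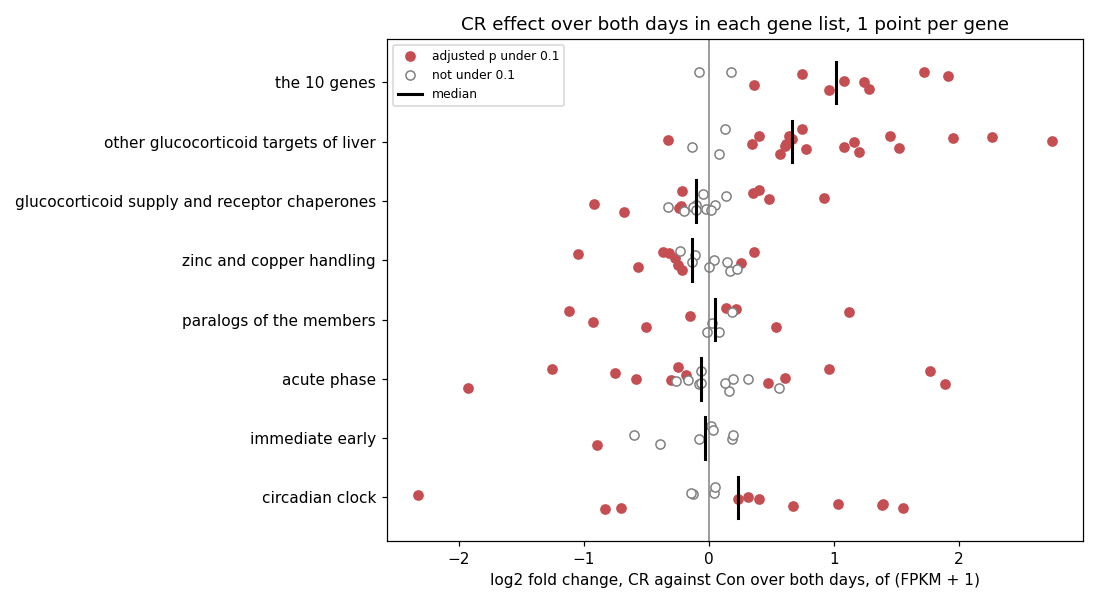
Difference between CR and Con mice over both days (horizontal axis, log2 fold change of FPKM + 1), with 1 point per gene, for the 10 genes and for 7 lists of other genes. Red points have an adjusted p under 0.1, open points do not, and the black bar is the median, which is 1.02 for the 10 genes and 0.66 for the other glucocorticoid targets.

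Clock genes were counted because several of the 10 genes follow the daily rhythm of corticosterone. Of 15 tested, 8 were higher and 3 lower over both days, where 14.5% of all genes were higher and 26.1% lower. Nr1d1, the repressor REV-ERBα, fell by 2.32 on the log2 scale (adjusted p = 1.9e-08), and Cry1 (1.55) and Usp2 (1.39) rose. The part that time of day had in the values of the 10 genes was not tested. Immediate early genes answer stress and handling within minutes, as Dusp1 also can. Of 8 tested, 0 were higher and 1 lower over both days, against 14.5% and 26.1% of all genes. The lower one was Junb, which fell by 0.90 on the log2 scale (adjusted p = 0.0113).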

How the data were processed

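Liver total RNA of 12 mice was sequenced by the authors as paired reads in a single lane (CASAVA 1.8.2 and FastQC per the labels) and mapped to mm10 with BWA. The authors named DESeq2 for their own tests. The deposited table holds FPKM values, which HOMER computed over the exons of a single transcript for each gene, without rescaling the libraries against each other. Versions of BWA and HOMER and the use of strand are not given in the sources used here. Replicates are separate mice. Columns of Con mice of day 30 could be matched to their group but not to single samples, and their numbers 1 to 3 here are the order of the columns.

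FPKM are not counts, and limma 3.58.1 (R 4.3.3) was run on their log2 after adding 1. A gene was tested if 3 or more libraries reached an FPKM of 1, which left 10593. The 4 groups entered 1 linear model with a mean-variance trend, from which the effect of CR on each day, the interaction and the change between days within a diet were taken. Diet and day as separate terms gave the effect over both days. Genes with a Benjamini-Hochberg adjusted p under 0.1 over all genes tested were called, and a log2 fold change of at least 1 was the fold threshold. Tests were 2-sided, and the model was tested on simulated data. Whole reads and depth were recovered from the steps of low values. The depth of 15748714 to 23345532 reads left at least 184 reads for each of the 10 genes in each library. Tables came from pandas 2.3.3 and numpy 2.4.6 under Python 3.11.15, and figures from matplotlib 3.10.9.

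The 10 genes, the gene lists and the tests were chosen with earlier results of these data known. The named genes are all 10 and, from each list, at most 4 that passed with the largest fold change over both days, and for likeness the 2 genes with the highest correlation. A gene that this rule takes is not reported here. The titles number the mice of each group and state no pairing, and the main model used no block. Deviations from the group means of same-numbered Con and CR mice of day 25 correlated at r of 0.106 to 0.368 (mean 0.26, against -0.132 for differently numbered mice). A block by number is reported with the alternatives. At day 30, by column number, these values were 0.046 to 0.181, with a mean of 0.114 against -0.058. Such deviations sum to 0 within a group. The mean for differently numbered mice therefore follows largely from that for same-numbered mice and adds no evidence of pairing. Alternatives changed the pseudocount, filter, scaling, moderation, samples in the model and block, used voom on recovered reads, or left out each mouse.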

Additional observations from a re-analysis of the deposited data

How the results depend on the processing

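Over 24 settings, 1300 alternative values of the 10 genes were computed, of which 421 were for called genes. Of the latter 0 changed direction and 47 lost the call, 14 and 17 of them for Mt1 at day 25 and day 30, 10 for Sgk1 and 4 for Dusp1 over both days, and 1 each for Tsc22d3 at day 25 and day 30. Fkbp5, Zbtb16 and Serpina6 kept their calls in every alternative run of the CR effect, as did Dusp1 at day 25. The replicate block left 6 genes called at day 25 and 5 at day 30, and 5 and 4 past both thresholds, so blocking by number changed no count of calls.

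Values near 0 turned direction, and the cause was not tested. The CR effect on Nr3c1 at day 25 was 0.0578 with median-ratio scaling and 0.0228 with quantile normalization, and -0.13 to 0.11 with 1 mouse left out. Leaving out 1 mouse gave -0.21 to 0.46 for Dusp1 at day 30. For the difference of the CR effect between days it gave -0.30 to 0.26 for Tsc22d3, -0.0902 to 0.40 for Sgk1, -0.69 to 0.35 for Mt1, -0.71 to 0.49 for Mt2, -0.36 to 0.0559 for Serpina6 and -0.0409 to 0.22 for Errfi1. Between the days within CR mice it gave -0.0254 to 0.22 for Nr3c1, -0.52 to 0.0078 for Zbtb16 and -0.0282 to 0.39 for Serpina6. With 1 mouse left out, 0 to 1 of the 10 genes passed between days within CR mice and 0 to 2 within Con mice, with or without the fold threshold. Those counts came from leaving out Con mouse 1 of day 30 (1 within CR and 2 within Con mice) or Con mouse 1 of day 25 (1 within Con mice). The fewest reads in a library were 184 for Zbtb16, 200 for Dusp1 and 204 for Sgk1, which limits the precision of their lowest values.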

Other observations

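Only some relatives of the 10 genes shared their direction. Of 12 relatives tested, 4 were higher and 4 lower over both days, against 14.5% and 26.1% of all genes. Serpina7, the thyroxine-binding globulin, a serpin like Serpina6, was higher, with a log2 difference of 1.12 (adjusted p = 1.5e-04). Tsc22d1 and Sgk2 were lower, with differences of -1.12 and -0.93, where Tsc22d3 and Sgk1 were higher, with 0.96 and 0.36. Dusp6, a phosphatase of ERK kinases, was higher, with a difference of 0.54 (adjusted p = 0.0104).

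Acute phase genes, which inflammatory signals and glucocorticoids raise together and which share those signals with the metallothioneins, were split. Of 22 tested, 5 were higher and 7 lower over both days, where 14.5% of all genes were higher and 26.1% lower. The 5 higher included the cytokine receptor genes Il6ra and Il1r1, and the 7 lower included Socs3, each named after its values were seen. Saa1 and Saa2, serum amyloid A genes, were lower, with differences of -1.93 and -1.26 (adjusted p = 3.1e-04 and 0.00138). Orm2 and Orm3, orosomucoid genes, were higher, with differences of 1.89 and 1.77 (adjusted p = 2.6e-05 and 0.00350). Saa1 and Saa2, and Orm2 and Orm3, are genes of the same families. Runs of bases shared between their transcripts were not examined. Reads could have been split between them in the counting, so their single values are uncertain.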
